A study of Mus musculus with 6 samples.

Results

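A set of 10 motile cilia genes was examined in medial mammillary neurons of male mice. It was built around Rsph9 and Enkur and comprised Rsph9, Rsph1, Rsph4a, Enkur, Foxj1, Dnah5, Dnai1, Ccdc39, Tekt1 and Spag6l, 10 of the 55414 genes in the table. Each was found by its gene name. Rsph9 and Enkur were chosen by their values in the contrast of the 2 neuron classes in these same libraries, so that contrast is given for them as a description. The question was whether these neurons held a motile cilia programme or transcripts of single genes.

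The libraries were made from fluorescent cells aspirated from papain-digested slices. There were 3 PV-positive libraries (PV replicates 6, 7 and 8), PV being the usual short name of parvalbumin, and 3 Drd2-positive libraries (Drd2 replicates 1, 2 and 3), Drd2 being the D2 dopamine receptor; no other treatment or genotype is named for either. Neither the mouse lines and reporters behind the fluorescence, nor age, nor the number of cells and mice per library, could be read from the labels. The series design calls the replicates biological; p-values measure the spread between these libraries only.

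Motile cilia beat; the axoneme inside them is a ring of microtubule doublets around a central pair. Dynein arms on the doublets drive the sliding, radial spokes link the doublets to the central pair, and further proteins line the doublets or set the spacing of the arms. In the brain such cilia are carried by ependymal cells, and the transcription factor Foxj1 is known as a main regulator of the genes of motile cilia. Most neurons carry a single primary cilium, which lacks these parts but is built by the same intraflagellar transport machinery.

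Levels are FPKM, that is, sequenced fragments scaled by gene length in kilobases and by depth in units of 1e6. The denominators recovered from the low values ran from 23.8 to 33.7 in units of 1e6 fragments. All 5 neuron markers (Snap25, Syt1, Rbfox3, Stmn2 and Slc17a6) were at 14.6 FPKM or more in every library, and 4 of 5 mammillary markers reached 1 FPKM in all 6, the exception being Sim1. Pvalb was higher in each PV library than in any Drd2 library, and Drd2 was higher in each Drd2 library than in any PV library. Pvalb was at 349, 482 and 563 FPKM in PV and still at 10.4, 22.5 and 99.5 in Drd2. The Drd2 transcript was at 42.7, 55.0 and 7.74 FPKM in Drd2 and at most 0.0132 in PV. Drd2 replicate 3 thus held more Pvalb than Drd2 transcript. Transcripts of other cells were present: 4 haemoglobin genes summed to 743 to 3203 FPKM in PV and 0 to 11.5 in Drd2, and 5 oligodendrocyte markers to 58.5 to 302 and 48.0 to 1041. Zeros were more frequent in PV replicate 7. Of genes at 5 FPKM or more in both other libraries of its group, 5.82% were listed at 0 there, against 0.421% to 1.63% in the other libraries. A value of 0 is therefore described as listed at 0 and not as absence.

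The stretches upstream of Enkur and Rsph9 are shown because the transcripts of these members were listed in every Drd2 library and in no PV library. They are the 250 bases before the RefSeq start (GRCm38.p6), 5′ to 3′ on the strand of the gene, at chr2:21205366-21205615 (minus strand) for Enkur and at chr17:46144201-46144450 (minus strand) for Rsph9. Capitals mark the letters GTTGCC, a half-site of the X-box bound by RFX factors, which are known regulators of cilia genes.
Enkur: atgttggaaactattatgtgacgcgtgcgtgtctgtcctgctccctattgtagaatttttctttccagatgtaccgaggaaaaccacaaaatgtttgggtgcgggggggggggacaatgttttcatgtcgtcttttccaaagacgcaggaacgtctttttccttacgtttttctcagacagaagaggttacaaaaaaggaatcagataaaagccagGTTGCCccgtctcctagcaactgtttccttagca
Rsph9: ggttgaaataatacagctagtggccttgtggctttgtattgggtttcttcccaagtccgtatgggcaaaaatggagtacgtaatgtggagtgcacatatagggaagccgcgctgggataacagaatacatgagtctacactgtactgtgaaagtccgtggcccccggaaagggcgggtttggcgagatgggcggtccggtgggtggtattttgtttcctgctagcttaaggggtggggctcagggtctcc
The half-site was searched on both strands, as was the forkhead motif TGTTTAC. Enkur held 1 half-site, beginning 34 bases before the start, and Rsph9 held neither motif in this window. Promoters of 7 of the 10 members were matched. The half-site was found for 2 of these members, Enkur and Tekt1, and the forkhead motif for none. A member was counted if any of its promoters held the motif. Tekt1 had more than 1 promoter: 1 held 2 half-sites and the other held 0. Of all 32851 promoters of this length, counted singly, 10.4% held the half-site and 3.17% the forkhead motif.

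Radial spoke genes gave the highest and some of the lowest values of the set. Rsph9, which encodes a protein of the radial spoke head (ENSMUSG00000023966; mm10 chromosome 17, 46122035 to 46144216, minus strand, 6 merged exons), reached 69.3, 39.6 and 25.6 FPKM in the 3 Drd2 libraries, in the order of replicates 1 to 3, while every PV library listed it at 0. The Drd2 values correspond to 3746, 1902 and 979 recovered reads. A single read of Rsph9 is worth 0.0209 to 0.0226 FPKM in the PV libraries, far below any Drd2 value, and the groups do not overlap.

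The other spoke head members did not follow Rsph9. Rsph1, another spoke head protein (chromosome 17, 31255019 to 31277383, minus strand), reached 8.32 FPKM in Drd2 replicate 1 and 4.98 FPKM in Drd2 replicate 3, and the other 4 libraries listed it at 0. Rsph4a, a spoke head protein known as a partner of Rsph9 (chromosome 10, 33905111 to 33916021, plus strand), was at 0.184 FPKM (16 reads) in Drd2 replicate 3 and was listed at 0 elsewhere. Of these spoke head genes only Rsph9 was seen in all 3 Drd2 libraries.

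Enkur encodes enkurin, a protein of the inner wall of the ciliary doublets that was first described as a calmodulin-binding adaptor of TRPC channels in sperm. It lies on chromosome 2, 21180731 to 21205365, minus strand (ENSMUSG00000026679, 5 merged exons). Its level was 7.61 FPKM in Drd2 replicate 1 (401 reads), 5.93 in replicate 2 (278 reads) and 18.3 in replicate 3 (681 reads), and every PV library listed it at 0. The order of the Drd2 libraries differed between both genes: Rsph9 was highest in replicate 1, Enkur in replicate 3.

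Genes at 5 FPKM or more in all 3 Drd2 libraries and listed at 0 in all 3 PV libraries numbered 13 of 4725 (0.275%), Rsph9 and Enkur among them. The reverse pattern was met by 3 of 3587 genes (0.0836%), none of them a member. This pattern was set after the values had been seen.

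Neighbouring genes did not share these zeros. Mrps18a, a mitochondrial ribosomal protein gene on the opposite strand whose span runs into that of Rsph9 without a shared exon, was at 36.7, 74.5 and 72.6 FPKM in PV and 40.6, 24.8 and 46.9 in Drd2. Mad2l1bp, on the other side of Rsph9, was at 11.3, 9.51 and 0.111 FPKM in PV and 6.24, 5.60 and 13.2 in Drd2. Thnsl1 starts 359 bases from Enkur on the opposite strand and was at 5.67, 17.6 and 12.8 FPKM in PV and 4.42, 2.95 and 16.7 in Drd2. Arhgap21, beyond a gap of 211850 bases on the other side of Enkur, was at 4.63 to 13.3 FPKM in all 6 libraries.

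Tekt1, a tektin filament protein of the doublets (chromosome 11, 72344722 to 72362442, minus strand), showed a different layout. It was at 9.70 and 6.74 FPKM in PV replicates 6 and 8 (469 and 310 reads) and was listed at 0 in PV replicate 7 and in the 3 Drd2 libraries. No library held Tekt1 together with Rsph9 or Enkur.

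The dynein members were low. Dnai1, an intermediate chain of the outer dynein arm (chromosome 4, 41569775 to 41638158, plus strand), reached 3.18 FPKM in PV replicate 6 and 0.563 in Drd2 replicate 2, with 0 listed for the others. Its last exon shares 15 bases with Enho on the opposite strand. Dnah5, an outer arm heavy chain (chromosome 15, 28203752 to 28472052, plus strand), was at 0.0729 FPKM in PV replicate 6 and listed at 0 in the other 5 libraries.

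Ccdc39, part of the ruler that spaces the arms along the doublet (chromosome 3, 33812362 to 33844310, minus strand), was the most evenly spread member. It was at 0.829, 2.24 and 2.40 FPKM in PV and 2.96, 2.09 and 3.60 in Drd2, and the groups overlapped (limma log2 difference -0.49 ± 0.63, SE; adjusted p = 0.781). Of its 7443 exon bases 1256 overlap Ttc14 on the opposite strand, which was at 9.90 to 17.4 FPKM. Whether the reads were counted by strand is not given, so the reads of both genes cannot be told apart in that stretch.

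Spag6l, of the central pair (chromosome 16, 16753016 to 16829456, minus strand), was at 1.52 FPKM in PV replicate 8 and 1.19 in Drd2 replicate 2 and was listed at 0 elsewhere. Its paralog Spag6 was at 1.38 FPKM in PV replicate 8 and at most 0.138 in the other libraries, and reads may be shared between these copies. Foxj1, the regulator named above (chromosome 11, 116330704 to 116335399, minus strand), rested on 2 reads in Drd2 replicate 1 (0.0226 FPKM) and 3 reads in Drd2 replicate 2 (0.0381 FPKM), and the other 4 libraries listed it at 0.

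**Figure D1:**
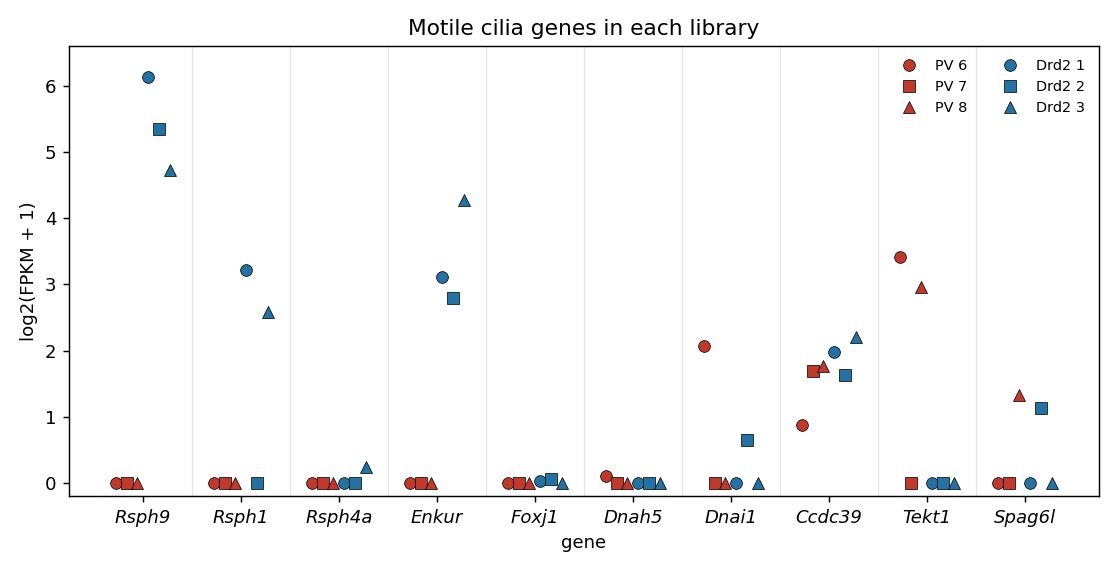
Level of each of the 10 genes in each library, as log2(FPKM + 1); red marks are PV libraries, blue marks Drd2 libraries, with a mark per library. Rsph9 and Enkur stand above 0 in the 3 Drd2 libraries alone, Tekt1 in 2 PV libraries alone, and Ccdc39 in all 6.

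Ordered by mean level, the Drd2 libraries held Rsph9, Enkur, Rsph1 and Ccdc39 ahead of the other members. The values of Rsph9 (25.6 to 69.3 FPKM) lay above those of Enkur (5.93 to 18.3), whereas those of Enkur and Rsph1, and of Rsph1 and Ccdc39, overlapped. In PV the order was Tekt1, Ccdc39 and Dnai1, and their values overlapped. No member other than Ccdc39 reached 1 FPKM in more than 3 libraries, and Rsph4a, Foxj1 and Dnah5 reached it in none.

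The PV-Drd2 contrast was fitted with limma on log2(FPKM + 1) over the 11478 genes that reached 1 FPKM in 3 or more libraries. Only 3 members passed that filter, Rsph9, Enkur and Ccdc39. Among all tested genes 30 passed the threshold of 0.05 (0.261%), 25 higher in Drd2 (0.218%) and 5 higher in PV (0.0436%). Rsph9 was 1 of the 25. Nothing is read from this count, as Rsph9 and Enkur were picked from the same contrast; leaving out any of the 3 Drd2 libraries left 0 motile cilia genes past the threshold.

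A wider set of 99 motile cilia genes, the 10 members included, was sorted into 8 lists by structure. The Drd2 libraries, taken as replicates 1 to 3, held 30, 37 and 23 of them at 1 FPKM or more, and the PV libraries, taken as replicates 6 to 8, held 26, 12 and 17. These shares, 12.1% to 37.4%, were below that of protein-coding genes in every library (34.1% to 46.8%). Only 5 of the 99 reached 1 FPKM in all 6 libraries, 43 reached it in none and 19 in a single library; of protein-coding genes 24.7% reached it in all 6 and 40.7% in none.

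Intraflagellar transport and BBSome genes, which build and sort cargo into both kinds of cilia, gave a contrast. Of 31, 22 to 31 were at 1 FPKM or more per library, and 20 were so in all 6. Kif3a, a motor subunit of this transport, was at 64.6, 80.5 and 122 FPKM in PV and 98.0, 101 and 95.4 in Drd2, and Ift20 was at 73.4, 21.9 and 92.1 against 91.2, 105 and 71.9. Of 30 tested genes limma called none (2 at an unadjusted p under 0.05) and voom on recovered reads called none (2 at an unadjusted p under 0.05). Over all tested genes 1468 of 11478 were at an unadjusted p under 0.05 in limma and 1446 of 11431 in voom. The median log2 difference of the 30 was -0.20, beside -0.28 for all tested genes.

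Primary cilium genes of neurons took a place in between, with 4 to 11 of 14 at 1 FPKM or more per library. Arl3, which releases lipidated cargo in the cilium, was at 56.4, 78.5 and 77.9 FPKM in PV and 48.3, 28.0 and 46.0 in Drd2. Mchr1, a receptor known for its place in neuronal cilia, was at 28.3, 18.5 and 30.3 FPKM in Drd2 and 0.0919, 0 and 16.9 in PV. Adcy3, the adenylyl cyclase used as a marker of neuronal cilia, was at 1.34, 2.78 and 2.38 FPKM in Drd2 and 0.446, 0 and 0 in PV; its exons overlap those of Cenpo on the opposite strand. The groups did not overlap for these 3 genes, 2 of the 10 tested being higher in Drd2 (13.1% of all tested genes) and 1 in PV (5.83%). Of 10 tested genes limma called none (2 at an unadjusted p under 0.05) and voom called none (2 at an unadjusted p under 0.05), with adjusted p-values of 0.449 for Arl3 and 0.224 for Mchr1 in limma. The unadjusted counts over all tested genes were 1468 of 11478 (limma) and 1446 of 11431 (voom).

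**Figure D2:**
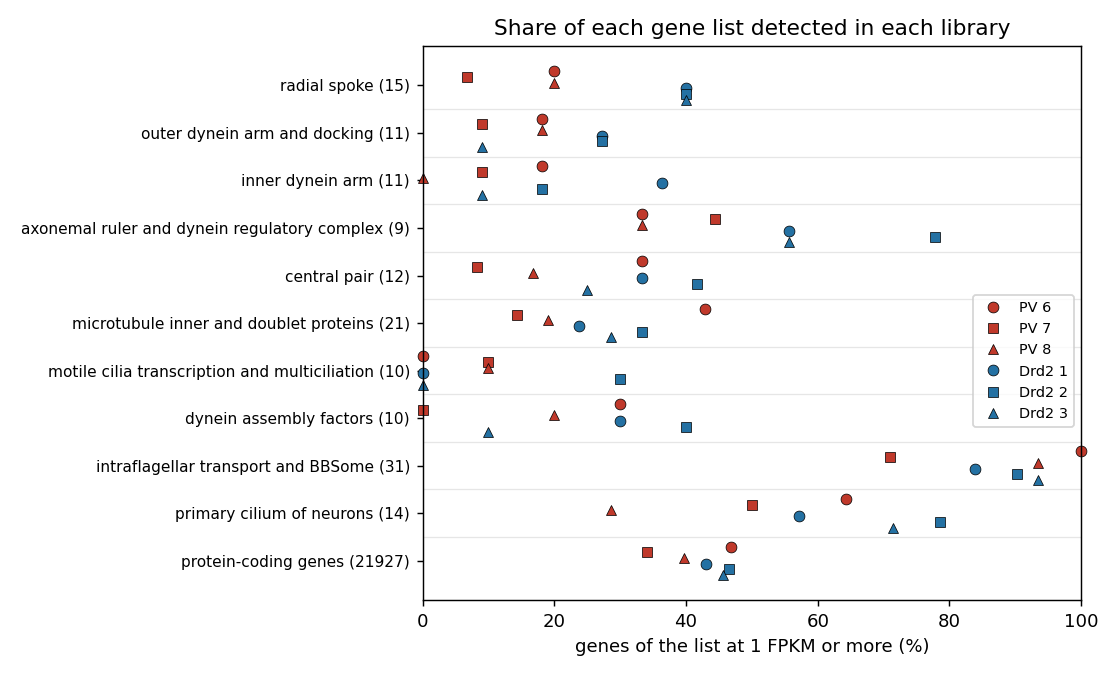
Share of each list at 1 FPKM or more (x axis, percent) in each library; the number of genes stands in brackets, red marks are PV and blue marks Drd2 libraries. Intraflagellar transport and BBSome genes lie between 71.0% and 100%, and the protein-coding genes between 34.1% and 46.8%.

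Genes that switch on the programme were low in most libraries. Of 10 transcription and multiciliation genes none reached 1 FPKM in PV replicate 6 or in Drd2 replicates 1 and 3, the libraries with the highest Tekt1, Rsph9 and Enkur. Rfx3, an RFX factor, was at 0.0196 to 2.99 FPKM, and Rfx2 was listed at 0 throughout. Mcidas, a switch of multiciliated cells, was at 8.94 FPKM in PV replicate 7 and 2.16 in Drd2 replicate 2 and was listed at 0 elsewhere. Deup1 and Cdc20b, both linked to centriole amplification, were seen in Drd2 replicate 2 alone, at 2.97 and 0.547 FPKM.

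The radial spoke list had a further gene with the layout of Rsph9. Nme5, a nucleoside diphosphate kinase family protein of the spoke, was at 32.6, 33.8 and 30.8 FPKM in Drd2 and 4.77, 0 and 0.122 in PV, without overlap. Its log2 difference was -4.16 ± 0.76 (SE), and it did not pass (limma adjusted p = 0.0535; 0.0272 to 0.379 over the alternatives). Of the other spoke genes, the stalk proteins Rsph3b (0 to 4.95 FPKM) and Rsph3a (1.66 to 6.56 FPKM) overlapped between the groups; they are close copies, so the split of their reads is uncertain. Cfap206 was listed at 0 in every library and Dnajb13 reached 1.26 FPKM in a single one.

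Few dynein arm genes reached 1 FPKM, 1 to 3 of 11 per library for the outer arm and 0 to 4 of 11 for the inner arm. Dnal1, a light chain of the outer arm, was at 1.04 to 5.85 FPKM in all 6 libraries. The docking protein Odad3 was at 4.28, 4.78 and 0.117 FPKM in Drd2 and 0.534, 0 and 0 in PV, Dnai2 at 1.06, 2.97 and 0 in Drd2 and listed at 0 in PV, and Odad4 peaked at 3.32 in PV replicate 8. Of the inner arm, Dnah7a was at 4.19, 1.34 and 1.11 FPKM in Drd2 and 0.0473, 0 and 0.901 in PV, without overlap, and did not pass (limma adjusted p = 0.434). Dnah1 was at 2.67, 1.03 and 0.544 FPKM in Drd2 and 0.288, 0.155 and 0 in PV, without overlap, but did not reach the filter for the test. Dnali1, a light chain, was at 5.33 FPKM in PV replicate 6, 0.0661 in PV replicate 8 and listed at 0 elsewhere, and Dnai4 ran from 0.0198 to 2.80 with overlap.

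Of the 9 ruler and regulatory complex genes, 5 to 7 reached 1 FPKM in Drd2 libraries and 3 to 4 in PV libraries. In Drd2 the shares were 55.6%, 77.8% and 55.6%, above protein-coding genes (43%, 46.5% and 45.6%), by replicate number. In PV they were 33.3%, 44.4% and 33.3% against 46.8%, 34.1% and 39.7%, thus above in PV replicate 7 only. This list so departed from the wider motile cilia set, whose shares lay below protein-coding genes in every library. The departure was not tested. Gas8, a core subunit of the dynein regulatory complex, was at 5.03, 4.56 and 6.23 FPKM in PV and 5.79, 4.42 and 9.68 in Drd2. Drc3 was at 1.38 to 3.98 FPKM in all 6 libraries, and Ccdc65 ran from 0 in PV replicate 8 to 18.2 in PV replicate 7. Drc1, named after its values were seen, was at 2.74, 4.01 and 6.72 FPKM in Drd2 and 0.0250, 0 and 0.486 in PV and did not pass (limma adjusted p = 0.171). Ccdc40, the ruler partner of Ccdc39, was at 1.01 FPKM in Drd2 replicate 2 and at most 0.0180 elsewhere.

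Central pair genes were led by Spef1, a microtubule-binding protein, at 3.98, 5.03 and 2.32 FPKM in Drd2 and 0.0977, 0 and 0.0257 in PV. It did not pass (limma adjusted p = 0.146), and its exons overlap those of Cenpb and Cdc25b. Cfap74, Cfap46 and Cfap54 overlapped between the groups. Genes named here as listed at 0 throughout, and Dnajb13 and Ccdc40, were picked after their values were seen. Hydin, a very large protein of the central pair, was listed at 0 in all 6 libraries.

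Among the doublet proteins Cfap20, which is also known from non-motile cilia, was the most abundant, at 8.70, 22.0 and 2.69 FPKM in PV and 39.5, 30.2 and 27.2 in Drd2; it did not pass (limma adjusted p = 0.295). Pierce1, listed as 1700007K13Rik, ran from 0 to 18.0 FPKM. Assembly factors for the dynein arms were low: Lrrc6 was at 6.17, 1.53 and 3.62 FPKM in Drd2 and at most 0.0173 in PV, without passing (limma adjusted p = 0.179), Ccdc103 reached 4.42, and Dnaaf1 and Dnaaf4 were listed at 0 throughout.

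**Figure D3:**
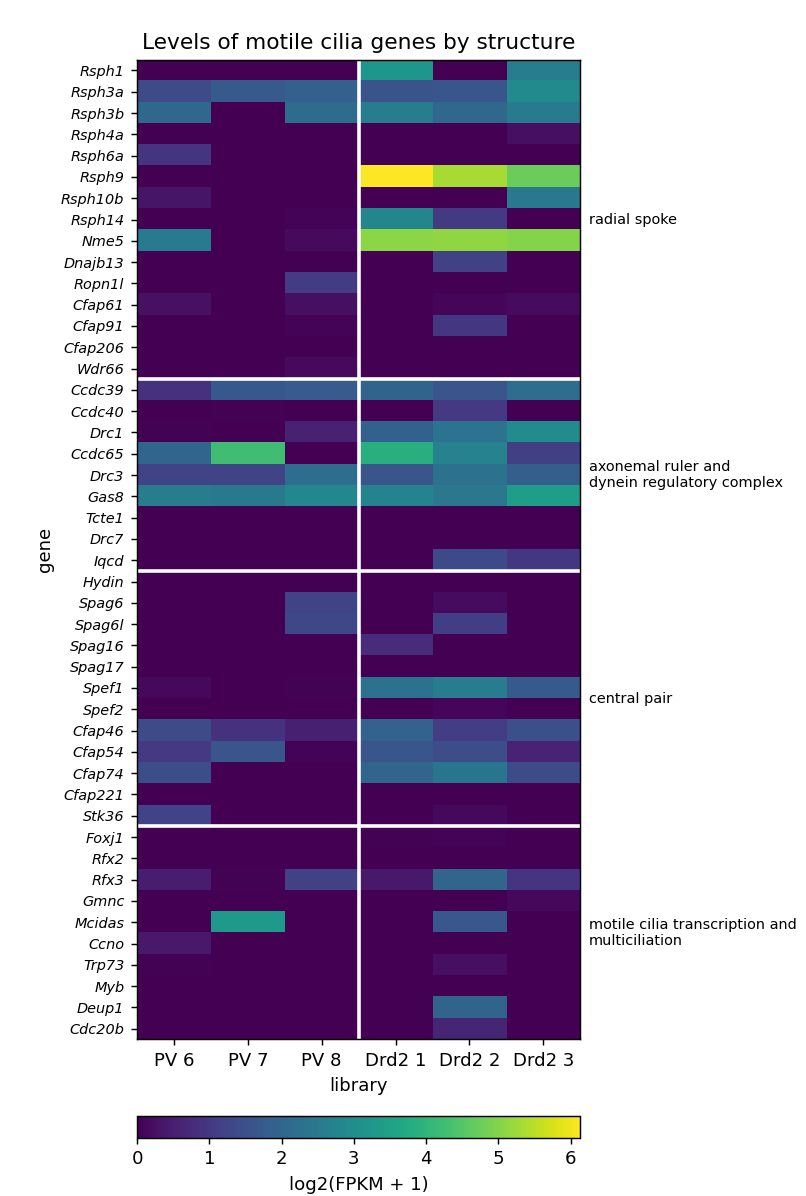
Levels of 46 genes in 4 of the motile cilia lists (rows) in each library (columns), as log2(FPKM + 1). Rsph9 and Nme5 are bright across the 3 Drd2 columns, Gas8, Drc3 and Rsph3a are faint in all 6, and most other rows are dark.

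Without the members, 20 of the 89 other motile cilia genes were tested. Of these limma called none (6 at an unadjusted p under 0.05), and voom called none (7 at an unadjusted p under 0.05). The unadjusted counts over all tested genes were 1468 of 11478 in limma and 1446 of 11431 in voom. Nme5 passed in 3 of the 13 alternatives, with a pseudocount of 5 FPKM, with quantile normalization and without PV replicate 6 (adjusted p = 0.0308, limma). In 18 of the 20 the fold was below 0, that is, higher in Drd2, as in 61.6% of all tested genes, and the median log2 difference was -0.53 beside -0.28. With quantile normalization 14 were below 0. The groups did not overlap in 6 of the 20, all higher in Drd2 (Nme5, Dnah7a, Drc1, Spef1, Cfap20 and Lrrc6), against 13.1% of all tested genes, and in none with PV higher, against 5.83%. A gene low in PV reached the test through its Drd2 values alone, so these counts do not support a direction.

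Rsph9, Nme5 and Cfap20 made up a large part of the motile cilia signal in Drd2. Of the summed FPKM of the 99 genes they held 54.6%, 46.2% and 44.7% in the Drd2 libraries and 14.3%, 16.9% and 4.83% in the PV libraries, each in the order of the replicate numbers. The sum itself was 259, 224 and 187 FPKM in Drd2 and 94.3, 131 and 58.3 in PV. Rsph9 and Enkur, picked from the same contrast, are part of this sum, so its group difference is partly built in. Without the members it was 171, 175 and 134 FPKM in Drd2 and 80.5, 128 and 47.6 in PV.

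**Figure D4:**
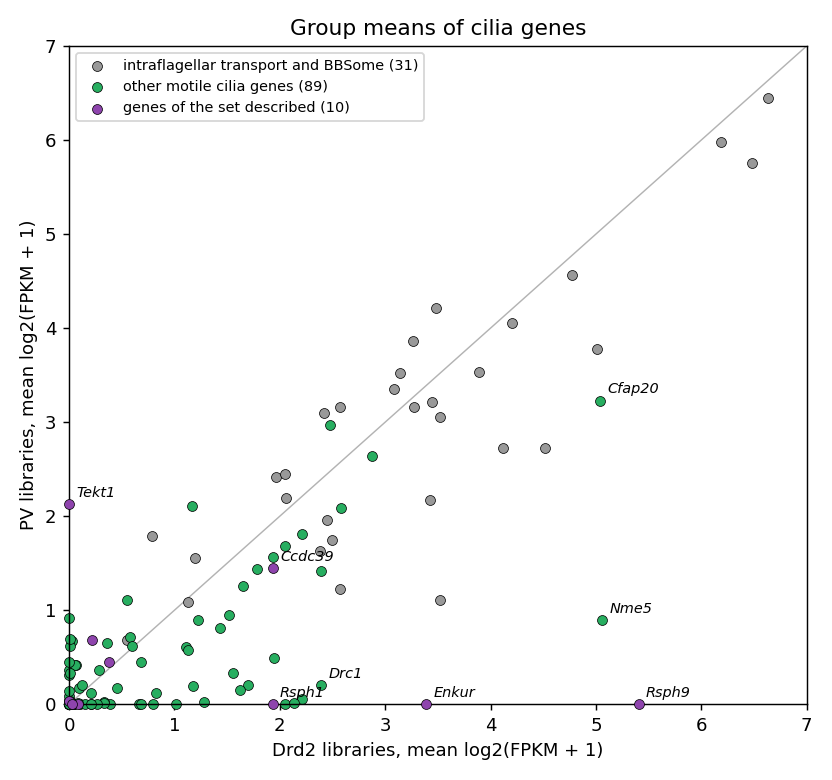
Mean log2(FPKM + 1) over the 3 Drd2 libraries (x axis) and the 3 PV libraries (y axis); each point is a gene and the line marks equal means. Rsph9, Nme5 and Enkur lie far below the line, Tekt1 lies on the y axis, and the intraflagellar transport and BBSome genes spread along the line.

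Markers of ciliated brain cells differed between the lists. The 9 ependymal markers, Foxj1 among them, summed to 1.39, 10.5 and 3.78 FPKM over the Drd2 libraries and to 16.7, 3.73 and 2.26 over the PV libraries, again by replicate number, and the groups overlapped. In Drd2 replicate 1, which held the most Rsph9, 1 of the 9 reached 1 FPKM (Ak7, 1.37) and Ccdc153, Tmem212, Rarres2, Dynlrb2, Mia, Krt15 and Cfap126 were listed at 0. In PV replicate 6, which held the most Tekt1, 3 of the 9 reached 1 FPKM: Dynlrb2 at 10.6, Cfap126 at 3.04 and Ccdc153 at 2.16. Ak7 was at 0.622 FPKM there and Rarres2 at 0.328, and Tmem212, Mia, Krt15 and Foxj1 were listed at 0. In Drd2 replicate 2 the markers at 1 FPKM or more were 2 of the 9, Tmem212 at 7.58 and Dynlrb2 at 2.04. The 7 choroid plexus markers summed to 4.23, 43.6 and 2.07 FPKM in Drd2 and 0.479, 0.00622 and 0.297 in PV, so this sum, like Rsph9 and Enkur, was higher in every Drd2 library than in any PV library. A different marker reached 1 FPKM in each Drd2 library, and none did in PV: Otx2 was at 4.23 FPKM (602 reads) in replicate 1, Ttr at 43.3 in replicate 2 and Kcnj13 at 1.72 in replicate 3. Folr1 was listed at 0 in all 6 libraries, and Ttr in Drd2 replicates 1 and 3, which held 69.3 and 25.6 FPKM of Rsph9. Tanycyte markers summed to at most 4.97 FPKM. The part of such cells in the levels of Rsph9, Enkur and the other motile cilia genes was not tested. In bulk libraries, fewer cells holding a transcript and less of it per cell cannot be told apart.

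Genes most like Rsph9 over the 6 libraries were taken from 7044 named genes by Pearson's r of log2(FPKM + 1), given as a description over 6 points that share their libraries. They were Rph3al (0.999), Timp2 (0.997), Klhl11 (0.996), St8sia2 (0.996) and Chodl (0.995). For Enkur they were Dok4 (0.999), Dok5 (0.996), Msantd1 (0.993), Slc7a3 (0.992) and Ephx4 (0.991). None of these 10 is on a motile cilia list. The r between Rsph9 and Enkur was 0.930, and with Nme5 it was 0.922 for Rsph9 and 0.895 for Enkur.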

How the data were processed

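RNA of aspirated PV-positive and Drd2-positive neurons (3 libraries each) was sequenced after a SMARTER library preparation, per the labels' protocols, which name 1.3 ug of total RNA as input. Expression was deposited by the authors as FPKM per gene; per the submitters' processing notes the tool named is STAR, without a version, and hg38, GRCh38 and mm10 appear as builds. Quantifier, annotation and strand setting were not given in the sources used here.

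Of 55414 gene identifiers 94.1% were found in GENCODE M21 (mm10), which gave positions and exon lengths. FPKM times exon length and a fitted denominator gave whole reads (within 0.01 read) for 97.96% to 98.74% of values up to 20 reads, where chance gives 2%. Recovered reads describe depth and feed an alternative test.

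PV was compared with Drd2 with limma 3.58.1 (R 4.3.3, trend, Benjamini-Hochberg threshold 0.05) on log2(FPKM + 1), for genes at 1 FPKM or more in at least 3 libraries; differences are PV minus Drd2 on that scale, which understates changes of low genes. The code was tested on simulated data. Alternatives were other pseudocounts, filters and scalings, each library left out, and, chosen after seeing the data, limma voom on recovered reads, a minimum of 10 recovered reads, the motile cilia count without the members and the refits of Nme5.

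The members and lists were chosen with earlier results of these data known. Genes named were the members, the 4 of each pathway list with the highest mean FPKM, neighbours and exon overlaps, the 5 most alike, and those marked as picked later; some genes that this rule names are not reported here. Promoters came from RefSeq (GRCm38.p6), cut to the bases upstream of the start.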

Additional observations from a re-analysis of the deposited data

How the results depend on the processing

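The fitted differences of Rsph9 and Enkur ran from -11.91 to -3.22 and from -9.59 to -1.56 on the log2 scale over the alternatives. Their sign (higher in Drd2) was fixed by the choice of these genes, which every PV library listed at 0. It is therefore no sign of stability. Adjusted p over the alternatives (limma, voom included) was 0.0125 to 0.214 for Rsph9 and 0.0655 to 0.428 for Enkur. The number of genes past the threshold, 30 as reported, was 4 with a pseudocount of 0.1 FPKM, 68 with 5 FPKM, 68 with quantile normalization, 0 without a filter on low values (1509 of 26063 at an unadjusted p under 0.05, limma), and 1 to 56 with a library left out. Of the motile cilia genes, 1 as reported (Rsph9), 2 passed with a pseudocount of 5 FPKM or quantile normalization, 0 without a filter in limma (8 at an unadjusted p under 0.05), 0 in voom on recovered reads (9 at an unadjusted p under 0.05) and 0 to 2 with a library left out: 2 without PV replicate 6 and 0 without any 1 of the Drd2 libraries. Without the members the number was 1 (Nme5) with a pseudocount of 5 FPKM, with quantile normalization and without PV replicate 6, and 0 to 1 over the left-out libraries. The causes were not tested.

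The motile cilia genes counted per library depended on the minimum. At 5 FPKM the PV libraries held 5, 5 and 4 and the Drd2 libraries 11, 9 and 9, by replicate number. At 0.1 FPKM there were 28 in PV replicate 8 and 37 in Drd2 replicate 3, and at 10 recovered reads PV replicate 6 held 42, PV replicate 8 held 28 and Drd2 replicate 3 held 37. No paired analysis was possible because the PV and Drd2 libraries share no replicate numbers. With 3 libraries a group and many zeros, a value of 0 in a single library cannot be told from a transcript lost in preparation.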

Other observations

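Bbs5, a BBSome subunit, was at 10.3, 8.30 and 13.4 FPKM in Drd2 and 8.95, 0 and 0.0144 in PV, and of the 31 genes of its list Ift22, Ift46 and Bbs1 were the tested ones whose groups did not overlap, all higher in Drd2; that is 3 of 30 tested, below the 13.1% of all tested genes. Kifap3, the adaptor of the kinesin-2 motor, was at 53.1, 38.0 and 117 FPKM in PV and 82.4, 108 and 41.2 in Drd2. Ift27 was at 39.6, 5.81 and 46.6 FPKM in PV and 41.1, 33.0 and 13.2 in Drd2.

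Cep290, a gene of the ciliary transition zone, was at 1.14 to 5.59 FPKM over the 6 libraries. Microglia markers summed to 7.39, 22.1 and 492 FPKM in Drd2 and to 272, 108 and 42.1 in PV, by replicate number. Oligodendrocyte markers summed to 278, 1041 and 48.0 FPKM in Drd2 and to 265, 302 and 58.5 in PV. Their part in the levels of Rsph9 and Enkur was not tested.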
